A study of Mus musculus with 6 samples.

Results

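Glutamate, glutamine and GABA uptake and metabolism was followed through 9 genes, selected by name from a table of 14327 genes. They were the glutamate carriers Slc1a2 and Slc1a3, the neutral amino acid exchangers Slc1a4 and Slc1a5, glutamine synthetase (Glul), glutamate dehydrogenase (Glud1), the glutamine carriers Slc38a1 and Slc38a3, and GABA transaminase (Abat). All 9 were found, and all 9 were among the 11596 genes tested, those averaging 1 FPKM or more. FPKM is the number of sequenced fragments of a gene divided by its transcript length and by the library's total of mapped fragments, so levels of different genes can be set side by side. The study sequenced RNA of neurospheres, free-floating cultures of neural stem cells, from 3 wild-type (WT) libraries and 3 libraries labelled cKO, a conditional knockout of Slc22a17, the receptor of the iron carrier lipocalin 2. All cells came from the hippocampus of mice at postnatal day 0 and had been grown with B27, N2, EGF and bFGF. The sources used here do not give the strain, sex, Cre driver or number of animals per library, so p-values measure the spread between libraries, which may be technical.

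Glutamate is the main excitatory transmitter of the brain and GABA the main inhibitory one. Astrocytes and radial glia-like stem cells take glutamate up, join it with ammonia to form glutamine, and release glutamine to neurons, which turn it back into glutamate and GABA. In dividing cells glutamine and glutamate also feed the tricarboxylic acid cycle and the synthesis of nucleotides, proline and glutathione. High levels of Slc1a2, Slc1a3 and Glul are a hallmark of astrocytes, and Slc1a3 and Glul are also used to mark radial glia.

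The upstream sequences of Glul and Slc1a4 are shown because Glul had the lowest p among the members with higher means in the cKO libraries and Slc1a4 the lowest among those with lower means. RefSeq sequences on GRCm38.p6 from 250 bases before to 50 bases after the start site were found for 5 of the 9 members, and not for Slc1a5, Slc38a1, Slc38a3 and Abat. The 250 bases upstream of Glul lie at chr1:153899679-153899928 on the plus strand, are 64.8% G and C, and read 5′ to 3′ with CCAAT boxes in capitals:
Glul: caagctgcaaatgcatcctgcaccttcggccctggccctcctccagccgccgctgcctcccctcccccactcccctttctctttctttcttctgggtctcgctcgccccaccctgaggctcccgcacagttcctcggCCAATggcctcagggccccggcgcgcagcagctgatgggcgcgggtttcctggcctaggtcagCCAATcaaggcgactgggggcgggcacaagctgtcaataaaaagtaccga
For Slc1a4 the 30 bases across the start site, at chr11:20332699-20332728 on the minus strand, hold in capitals the reverse complement of TGATGCAA, the core of the amino acid response element, which is known as a binding site of the stress factor ATF4:
Slc1a4: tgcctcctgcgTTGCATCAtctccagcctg
Motifs were searched on both strands, after the sequences had been read. The letters CCAAT or ATTGG occurred 2 times in the Glul window, 3 times in that of Slc1a3, 2 times in that of Slc1a4 and 0 times in those of Slc1a2 and Glud1. Of 27025 promoter windows of the same length 37.9% held them at least 1 time and 12.2% held them 2 or more times. Of the 11428 windows that belong to genes in the table, 38.7% held them at least 1 time. The GC box, GGGCGG or CCGCCC, occurred 3 times in the windows of Glud1 and Slc1a4 and 1 time in those of Glul and Slc1a3. It occurred 0 times in that of Slc1a2. At least 1 GC box stood in 35.9% of all windows and in 63.1% of those of genes in the table. The TATA box, TATAAA or TTTATA, occurred 1 time in the window of Slc1a3. It stood in 14.2% of all windows and in 6.99% of those of genes in the table. TGATGCAA or TTGCATCA stood in 0.929% of all windows and in 0.534% of those of genes in the table. Among the 5 members it stood in that of Slc1a4 alone. Of 44 other pathway genes with a window, Got1 and Slc7a11 held it. These are matches of letters, and binding was not measured.

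Some facts about the libraries bear on all the genes. Slc22a17 itself ran from 169 to 204 FPKM in WT and from 164 to 187 FPKM in cKO (log2 fold change -0.097, limma adjusted p = 0.707), so its transcript was not lost, and cKO stands below for the libraries labelled cKO, not for cells shown to lack the gene. The sources used here do not say which part of the gene was deleted. The Y-linked transcripts Ddx3y and Eif2s3y together were at 25.9 FPKM in WT replicate 3, at most 0.10 FPKM in the other WT libraries and 43.8 to 51.2 FPKM in cKO. Y-linked genes are carried by male cells only. By these values WT replicates 1 and 2 look female and the cKO libraries male, and WT replicate 3 stood at 53.4% of the cKO mean. The comparison is thus largely of female WT with male cKO libraries. Group and this Y-linked share cannot be fully told apart, and WT replicate 3 alone against cKO is given below where it turns a value. Of the stem and progenitor markers, Sox2 was at 122.8 FPKM or more and Nes at 80.7 FPKM or more in each library. The 9 markers summed to 3357 to 3559 FPKM in WT and 3074 to 3362 FPKM in cKO. Most of this sum was Fabp7 (means of 2071 FPKM in WT and 1917 FPKM in cKO) and Vim (1086 and 996 FPKM). Others were low, such as Hes5 (4.19 and 3.42 FPKM) and Prom1 (8.25 and 8.58 FPKM). The share of stem cells in the libraries was not tested. The 14 astrocyte markers, none of them a member, summed to 6124 to 7634 FPKM in WT and 7778 to 8152 FPKM in cKO. Summed proliferation markers, 10 genes, were at 242 to 305 FPKM in WT and 167 to 232 FPKM in cKO. Oligodendrocyte lineage markers, 9 genes, summed to 1255 to 1723 FPKM in WT and 1207 to 1469 FPKM in cKO. Most of this sum was Olig1, at a mean of 1011 FPKM in WT and 934 FPKM in cKO. Of the 9 markers 7 had lower means in cKO, such as Mbp (60.7 and 38.8 FPKM), and 2 higher, such as Pdgfra (7.70 and 9.28 FPKM). Of all tested genes 44.5% had higher means. An unadjusted limma p under 0.05 was reached by 3 of the markers, all lower, where 7.82% of all tested genes were that far lower. None passed the adjusted threshold. Microglial markers summed to 6.77 to 16.5 FPKM and endothelial and mural markers to 4.08 to 6.03 FPKM over all libraries, and neuron markers, 8 genes in the table, to 87.7 to 94.8 FPKM in WT and 86.4 to 102.8 FPKM in cKO. Most of the neuron sum was Map2, at a mean of 76.4 FPKM in WT and 75.6 FPKM in cKO. Tubb3 was at 3.46 to 4.53 FPKM in WT and 4.95 to 5.40 FPKM in cKO, without overlap, and Dcx, Rbfox3 and Stmn2 averaged at most 0.31 FPKM in either group.

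Levels spread over a wide range, and the order began with Glul. Its mean over the 6 libraries was 1065 FPKM, the rank of 24 among all 14327 genes. Next came Slc1a3 at 528 FPKM, Glud1 at 324, Slc38a3 at 236, Slc1a2 at 198, Abat at 143, Slc1a4 at 82.1, Slc38a1 at 28.4 and Slc1a5 at 3.24 FPKM. The ranges of neighbours in this order overlapped only between Slc38a3 and Slc1a2 and between Slc1a2 and Abat. From Glul down to Slc1a4 these means lay within the highest 6.29% of the table, whereas that of Slc1a5 lay at 68.9% from the top. The plot of levels by library shows this order.

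**Figure D1:**
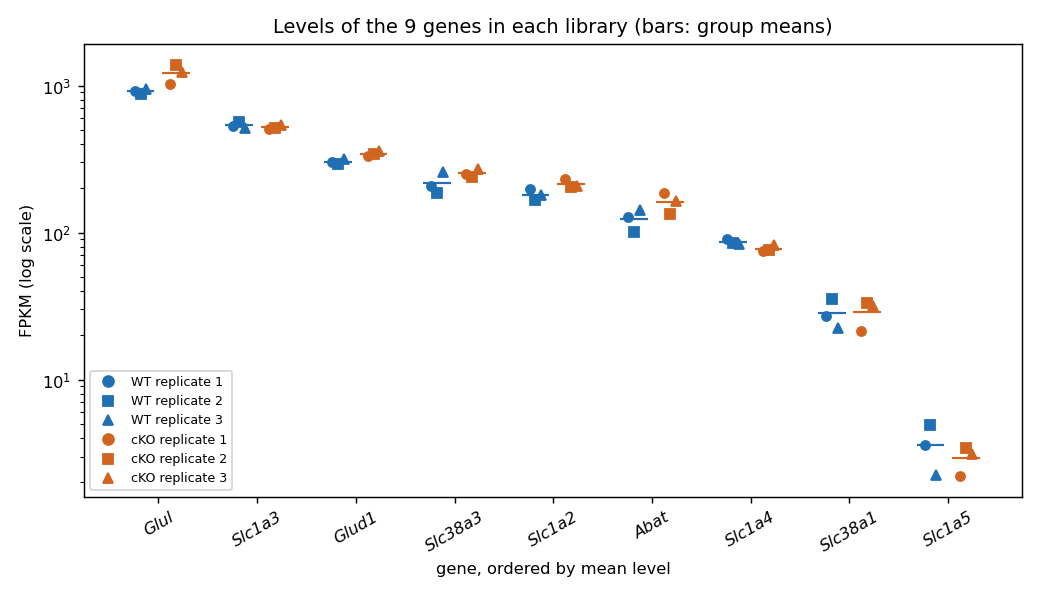
FPKM of the 9 genes on a log axis, 1 point per library (blue WT, orange cKO; the symbol gives the replicate number), with bars at the group means. Levels run from 1389 FPKM for Glul to 2.21 FPKM for Slc1a5, and the groups lie close together beside the distances between genes.

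With p adjusted over all genes tested, limma called none of the 9 genes at 0.05, and the smallest adjusted p was 0.257. It called 3 genes in all, 0.0259% of those tested. An unadjusted p under 0.05 was reached by 5 members, 4 with higher and 1 with lower means in the cKO libraries, where 4.44% of all tested genes were that far higher and 7.82% that far lower. The values of the groups were apart for 4 members, 3 higher and 1 lower, beside 7.07% of all tested genes higher and 10.2% lower, 17.2% together. Means were higher for 6 of the 9 and lower for 3, where 44.5% of all tested genes had higher means. The members' median log2 fold change was 0.18. The median of all tested genes was -0.015. The genes were proposed with results of these data known, so these shares describe the 9 genes and are no test of them.

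**Figure D2:**
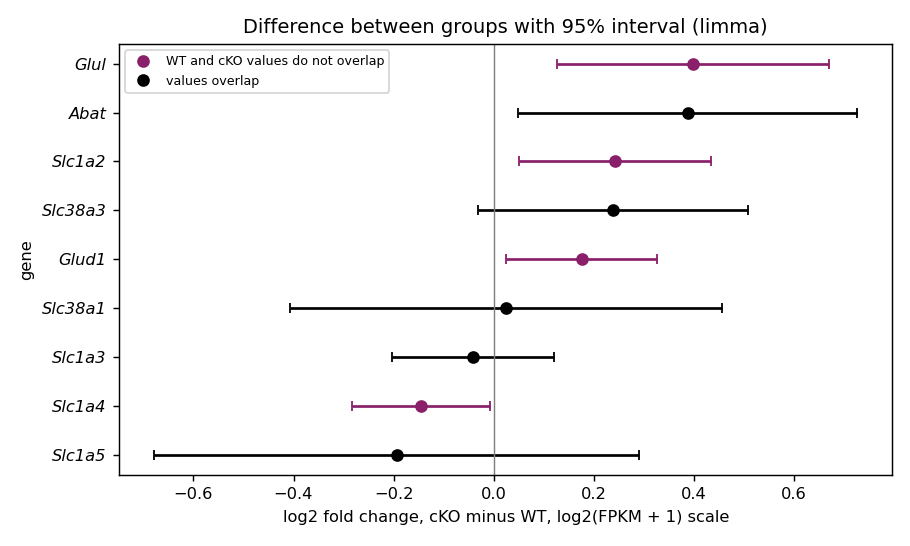
Log2 fold change of each gene, cKO minus WT on the log2(FPKM + 1) scale, with its 95% interval from limma, in purple where WT and cKO values do not overlap. The intervals of Glul, Abat, Slc1a2 and Glud1 lie above 0 and that of Slc1a4 below 0 before adjustment for the number of genes tested.

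Glutamate carriers came first by role. Slc1a2 (gene identifier 20511, GRCm38 chromosome 2, 102658239 to 102790784) encodes GLT-1, the main glutamate transporter of mature astrocytes. WT replicates 1 to 3 held 199, 166 and 179.8 FPKM, and the cKO replicates in the same order 232, 205 and 207 FPKM. Every cKO library was above every WT library, with WT replicate 1 only slightly below cKO replicate 2. The means were 182 ± 16.2 and 215 ± 15.4 FPKM (SD, n = 3 each), a ratio of 1.18. The log2 fold change was 0.24 (SE 0.084, 95% interval 0.050 to 0.43), with an unadjusted p of 0.0192 and an adjusted p of 0.303 in limma. The fold change against WT replicate 3 alone was 0.25, and with library weights it was 0.13.

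Slc1a3 (identifier 20512, chromosome 15, 8634124 to 8710807) encodes GLAST, the glutamate transporter of radial glia and astrocytes. It was at 530.2, 563 and 514 FPKM in WT, against 506, 518 and 536 FPKM in cKO. The groups overlapped, and the highest library was WT replicate 2. Means were 536 ± 25.2 and 520.0 ± 15.2 FPKM (SD, n = 3 each), with a log2 fold change of -0.042 and a 95% interval of -0.20 to 0.12 (limma adjusted p = 0.859).

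Set together, Slc1a2 and Slc1a3 summed to 729, 729.7 and 694 FPKM in WT and to 739, 722 and 743 FPKM in cKO, so the groups overlapped in the sum. The share of Slc1a2 in it was 27.2%, 22.8% and 25.9% in WT and 31.5%, 28.3% and 27.8% in cKO. Each cKO share lay above each WT share, closest between WT replicate 1 and cKO replicate 3. This quantity was chosen after the values were seen and was not tested.

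**Figure D3:**
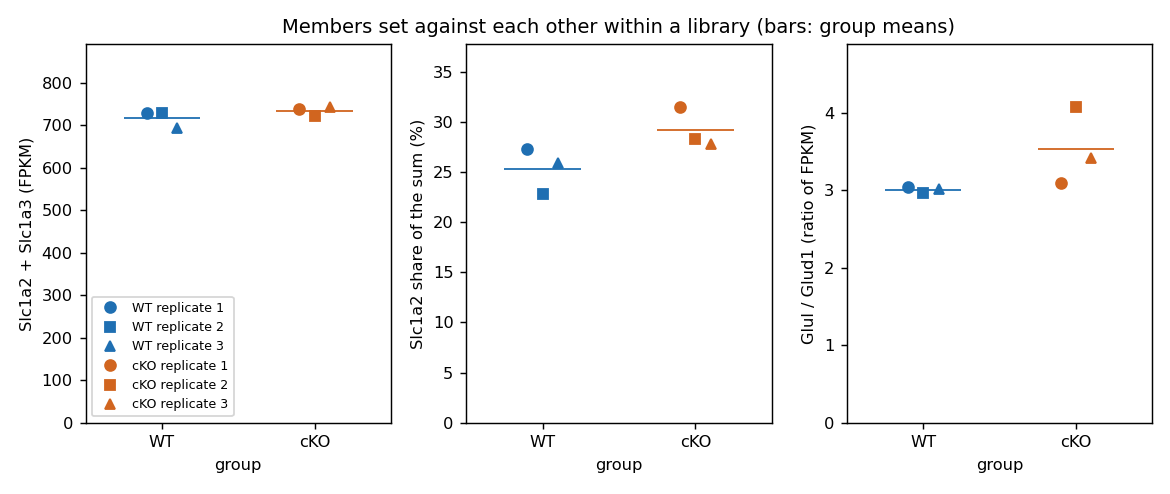
Sum of Slc1a2 and Slc1a3 in FPKM, the share of Slc1a2 in that sum in percent, and the ratio of Glul to Glud1, 1 point per library, with bars at the group means. The sums overlap between groups, while the shares and the ratios of the cKO libraries lie above those of WT, narrowly for cKO replicate 1 in the ratio.

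The neutral amino acid exchangers of the same family, which carry alanine, serine, cysteine and, for Slc1a5, glutamine, were the members with the most negative fold changes. Slc1a4 (ASCT1, identifier 55963, chromosome 11, 20302180 to 20332713) was at 90.7, 84.7 and 83.4 FPKM in WT, against 75.5, 76.2 and 81.9 FPKM in cKO. All cKO libraries were below all WT libraries, with cKO replicate 3 close to WT replicate 3. The means were 86.3 ± 3.91 and 77.9 ± 3.48 FPKM (SD, n = 3 each), a ratio of 0.903, and the log2 fold change was -0.15 (SE 0.060, 95% interval -0.28 to -0.0080, limma unadjusted p = 0.0405, adjusted p = 0.383). Against WT replicate 3 alone it was -0.099.

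Slc1a5 (ASCT2, identifier 20514, chromosome 7, 16781334 to 16798274), the glutamine importer of many proliferating cells, was the lowest of the members. Its values were 3.58, 4.89 and 2.24 FPKM in WT and 2.21, 3.43 and 3.11 FPKM in cKO. The WT libraries spanned more than the cKO libraries, and the groups overlapped. The log2 fold change of -0.19 had a 95% interval of -0.68 to 0.29 (limma adjusted p = 0.769), and it was 0.26, the opposite sign, against WT replicate 3 alone. Slc1a4 exceeded Slc1a5 17.3-fold to 37.2-fold within a library.

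Glutamine synthetase and glutamate dehydrogenase followed, the enzymes that use glutamate. Glul (identifier 14645, chromosome 1, 153899929 to 153909723) forms glutamine from glutamate and ammonia and is a classic marker enzyme of astrocytes. Its values were 922, 874 and 951 FPKM in WT replicates 1 to 3 and 1022, 1389 and 1235 FPKM in cKO replicates 1 to 3. Every cKO library was above every WT library, and the cKO libraries differed among themselves by more than the WT libraries did. The means were 916 ± 38.7 and 1215 ± 184 FPKM (SD, n = 3 each), a ratio of 1.33. With a log2 fold change of 0.40 (SE 0.12, 95% interval 0.13 to 0.67), an unadjusted p of 0.00932 and an adjusted p of 0.257 in limma, Glul had the lowest p of the members. Its fold change was 0.30 without cKO replicate 2 and 0.52 without cKO replicate 1, and it was 0.34 against WT replicate 3 alone.

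Glud1 (identifier 14661, chromosome 14, 34310727 to 34345033) encodes the mitochondrial enzyme that turns glutamate into 2-oxoglutarate, and lies on the chromosome that also carries Slc22a17. It was at 303, 295 and 316 FPKM in WT, against 329.7, 341 and 361 FPKM in cKO, with no overlap. Means of 304 ± 10.5 and 344 ± 15.9 FPKM (SD, n = 3 each) gave a ratio of 1.13 and a log2 fold change of 0.18 (SE 0.066, 95% interval 0.024 to 0.33, limma unadjusted p = 0.0278, adjusted p = 0.337). Against WT replicate 3 alone the fold change was 0.12. The ratio of Glul to Glud1 within a library was 3.04, 2.97 and 3.01 in WT and 3.10, 4.07 and 3.42 in cKO. The WT libraries held nearly the same ratio, and cKO replicate 1 was barely above them. This ratio too was chosen after the values were seen.

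Glul and Slc1a2 are expressed by astrocytes, and summed astrocyte markers were higher in each cKO library than in any WT library. Of these 14 markers 11 had higher and 3 lower means, where 44.5% of all tested genes had higher means. The median fold change of the markers was 0.11 on the log2 scale, with none past the adjusted threshold in limma. For 6 of them, all higher, the unadjusted p was under 0.05, as for 4.44% of all tested genes. Gfap, the intermediate filament of astrocytes, made up the largest part of the sum. Its values were 2741, 1661 and 2442 FPKM in WT and 2408, 2416 and 2501 FPKM in cKO, which overlapped. Aldoc, a glycolytic enzyme of astrocytes, was at 848 to 1138 FPKM in WT and 1279 to 1418 FPKM in cKO, without overlap. The 3 markers with lower means were Aqp4 (176 FPKM in WT and 161 FPKM in cKO), Aldh1l1 (323 and 316 FPKM) and Sox9 (50.4 and 48.8 FPKM). The part of the astrocyte markers in the values of Glul and Slc1a2 was not tested, and in such bulk samples more cells of a type and more RNA per cell cannot be told apart.

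Glutamine carriers were split by level. Slc38a3 (SNAT3, identifier 76257, chromosome 9, 107651154 to 107668968), through which astrocytes release glutamine, was at 208, 186 and 260.0 FPKM in WT, against 252, 241 and 272 FPKM in cKO. WT replicate 3 lay within the cKO range, above cKO replicates 1 and 2. The means were 218 ± 38.2 and 255 ± 15.9 FPKM (SD, n = 3 each), with a log2 fold change of 0.24 and a 95% interval of -0.031 to 0.51 (limma adjusted p = 0.462). Against WT replicate 3 alone the fold change was -0.031, the opposite sign, and it was 0.37 without that library and 0.13 without WT replicate 2.

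Slc38a1 (SNAT1, identifier 105727, chromosome 15, 96571418 to 96643438), which takes glutamine up, was at 26.9, 35.2 and 22.4 FPKM in WT, against 21.4, 33.0 and 31.7 FPKM in cKO. Each group held a library near the bottom of the range, and the groups overlapped widely. The log2 fold change was 0.025 with a 95% interval of -0.41 to 0.46 (limma adjusted p = 0.975), which leaves room for a change of either sign. Leaving out WT replicate 3 gave -0.12, and leaving out cKO replicate 1 gave 0.22.

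Abat (identifier 268860, chromosome 16, 8513429 to 8621568), the mitochondrial enzyme that begins the breakdown of GABA, had the largest ratio of means after Glul. It was at 127, 101 and 143 FPKM in WT, against 187, 134 and 165 FPKM in cKO. The groups overlapped, since WT replicate 3 was above cKO replicate 2. Means were 124 ± 21.5 and 162 ± 26.3 FPKM (SD, n = 3 each), a ratio of 1.31. The log2 fold change was 0.39 (SE 0.15, 95% interval 0.049 to 0.73, limma unadjusted p = 0.0296, adjusted p = 0.346). It was 0.25 without WT replicate 2, 0.16 against WT replicate 3 alone, and -0.24, the opposite sign, with a covariate for the Y-linked share.

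**Figure D4:**
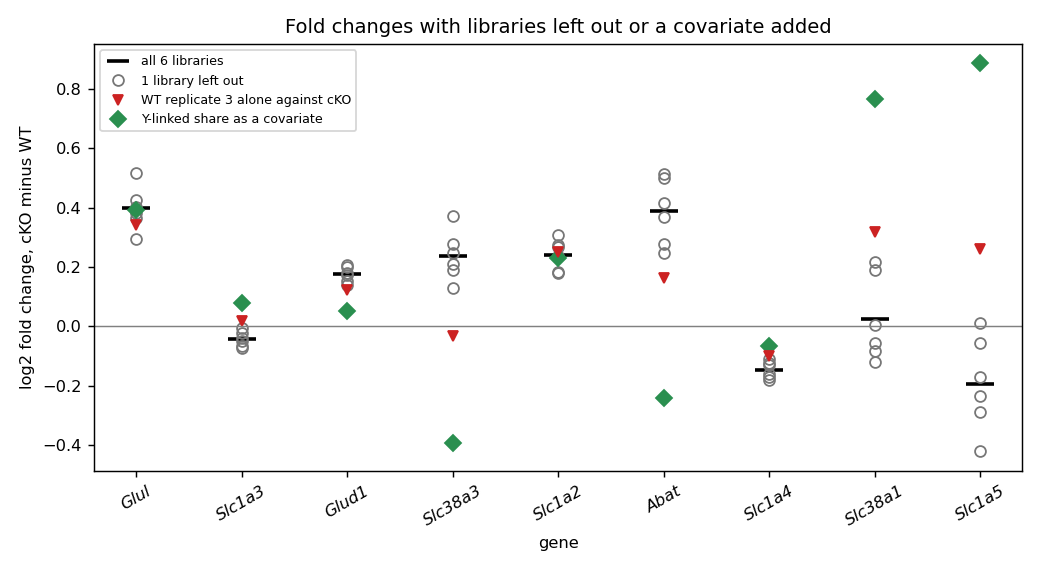
Log2 fold change of each gene, cKO minus WT, with all 6 libraries (black bar), with 1 library left out (open circles), for WT replicate 3 alone against cKO (red triangle) and with a covariate for the Y-linked share (green diamond). Glul and Slc1a2 stay near their values with all libraries, at 0.40 and 0.24, while Slc38a3, Abat, Slc38a1 and Slc1a5 move widely. With the covariate the SE of Glul and Slc1a2 were 0.31 and 0.21, beside 0.12 and 0.084 without it.

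The rest of the pathway was taken from a list of 51 further genes, of which 47 were in the table and 38 were tested. None passed the adjusted threshold in limma (smallest adjusted p 0.194). An unadjusted limma p under 0.05 was reached by 4 with higher means and 2 with lower means, where all tested genes gave 4.44% and 7.82%. The groups did not overlap for 2 genes with higher and 1 with lower means, beside 7.07% and 10.2% of all tested genes. Means were higher for 17 and lower for 21, where 44.5% of all tested genes had higher means. The median log2 fold change of the 38 was -0.0088, beside -0.015 for all tested genes.

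Prodh, the first enzyme of proline breakdown to glutamate, had the lowest p of them. Its values were 25.2, 19.5 and 24.7 FPKM in WT and 29.0, 36.2 and 37.9 FPKM in cKO, without overlap (log2 fold change 0.55, SE 0.12, limma adjusted p = 0.194). Slc7a11, which exports glutamate in exchange for cystine, was at 8.47, 8.83 and 10.35 FPKM in WT, against 16.5, 10.32 and 12.3 FPKM in cKO (log2 fold change 0.44, limma adjusted p = 0.297), and cKO replicate 2 was level with WT replicate 3. Its fold change was 0.27 without cKO replicate 1 and 0.28 against WT replicate 3 alone. Gclc, the catalytic subunit of the enzyme that joins glutamate to cysteine for glutathione, was at 26.6 to 28.6 FPKM in WT and 29.1 to 33.7 FPKM in cKO, narrowly without overlap (log2 fold change 0.20, limma adjusted p = 0.303). The GABA transporter Slc6a11 (GAT-3), which clears GABA into astrocytes, was at 208, 215 and 249 FPKM in WT, against 240.2, 253 and 291 FPKM in cKO, with overlap (log2 fold change 0.22, limma adjusted p = 0.40). Without cKO replicate 3 its fold change was 0.14, and against WT replicate 3 alone 0.066.

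Among lower means Cad, the enzyme that starts pyrimidine synthesis with glutamine, was at 15.6 to 16.2 FPKM in WT and 12.5 to 14.7 FPKM in cKO, without overlap (log2 fold change -0.23, limma adjusted p = 0.267). Ctps, which makes CTP with glutamine, had a log2 fold change of -0.17 (limma adjusted p = 0.407), and -0.26 against WT replicate 3 alone. The glutamine carrier Slc38a2 (SNAT2) was at 36.7 to 51.1 FPKM in WT and 29.2 to 38.2 FPKM in cKO, with overlap (log2 fold change -0.32, limma adjusted p = 0.381). Leaving out WT replicate 2 gave -0.18, and WT replicate 3 alone gave -0.14. Slc25a13, a mitochondrial aspartate-glutamate carrier, averaged 1.51 FPKM over all libraries (log2 fold change -0.22, limma adjusted p = 0.510), with -0.13 when WT replicate 2 was left out and -0.12 for WT replicate 3 alone. Ppat and Gmps, the other enzymes of the list that use glutamine for nucleotides, had log2 fold changes of 0.0030 and -0.069 (limma adjusted p = 0.995 and 0.729). They were named after their values were seen. The proliferation markers had lower means in cKO, 10 of 10, where 44.5% of all tested genes had higher means. The median of these markers was -0.42 on the log2 scale, and their part in the values of Cad and Ctps was not tested.

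**Figure D5:**
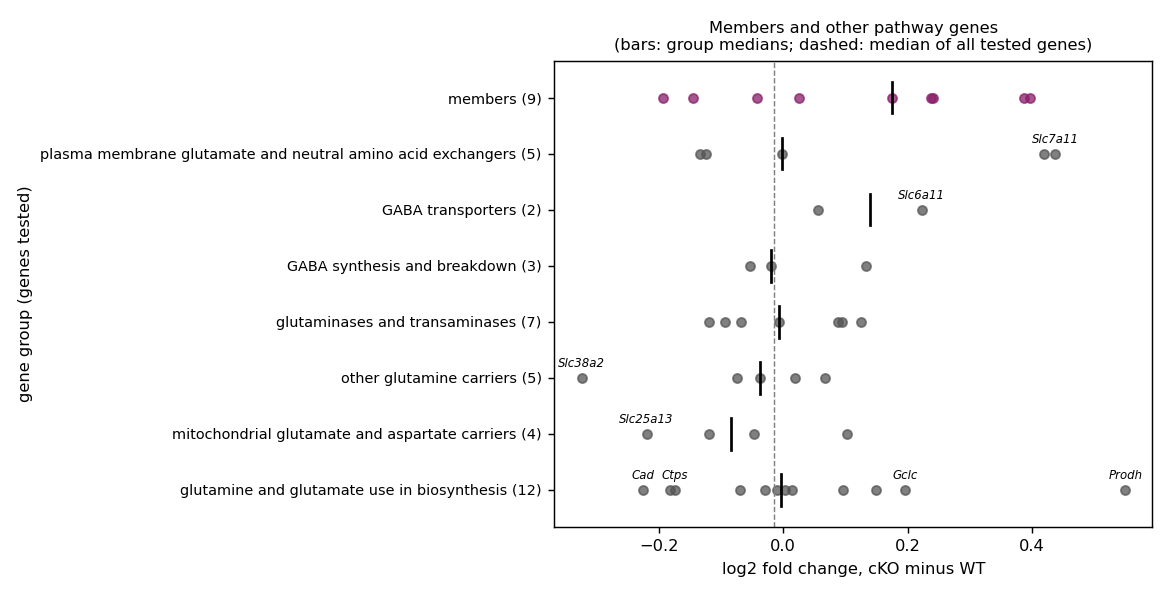
Log2 fold changes, cKO minus WT, of the 9 members (purple) and of 38 other pathway genes by group (grey), with black bars at the medians and a dashed line at the median of all tested genes, -0.015. The members' median is 0.18 and most other groups centre near 0, with Prodh the farthest to the right at 0.55.

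Genes for making and packing transmitters were close to absent. The GABA-forming enzymes Gad1 and Gad2 were at 0.37 to 1.41 and 0.060 to 0.27 FPKM over the 6 libraries, and the vesicular glutamate transporters Slc17a6 and Slc17a8 at 0.010 to 0.080 and 0.24 to 0.46 FPKM. All 4 lay under the filter. In contrast the mitochondrial glutamate carrier Slc25a18 averaged 351 FPKM in WT and 377 FPKM in cKO.

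Likeness in pattern was measured for Glul, the member both of lowest p and of highest level, as the mean absolute difference of centred log2 values over the 6 libraries. The closest of 3987 genes with enough spread were Mgll, Col11a2 and Ifi30, at 0.042, 0.048 and 0.053 on the log2 scale. Mgll, the lipase that breaks down the endocannabinoid 2-arachidonoylglycerol, was at 177, 171 and 195 FPKM in WT, against 194, 256 and 229 FPKM in cKO. As for Glul, its highest value was that of cKO replicate 2 and its lowest that of WT replicate 2. With so many candidates and 6 libraries, close patterns arise without any link between genes.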

How the data were processed

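The authors deposited FPKM values for 6 libraries, per the file headers. The submitters' processing notes name Bowtie2 and GRCm38 (mm10). The sources used here do not give the counting tool, annotation, strandedness or filters. Depth is unknown. Whole reads were searched for in low values of genes with 1 short transcript, over many trial depths. At the best depth of each library 37.0% to 51.5% of these values came out whole within 0.1 read. The 20% expected at a fixed depth is no measure for a depth picked as the best of many. Counts were not recovered, so no count model was run.

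Values were analysed as log2(FPKM + 1) for genes averaging 1 FPKM or more, which left out 2731. This scale understates changes of low genes. The 2 groups were fitted in limma 3.58.1 under R 4.3.3 (eBayes with an intensity trend), two-sided, adjusted by Benjamini-Hochberg over all 11596 genes, threshold 0.05. The fit was tested on simulated data. An exact permutation test of 3 against 3 libraries cannot go below 0.1 and was not used. Positions come from RefSeq, where 14317 identifiers matched. Long noncoding RNAs overlap Slc1a2 and Slc38a1, a microRNA overlaps Glul and a pseudogene overlaps Abat. Their reads cannot be told apart.

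The members and lists were chosen with earlier results of these data known. Genes named are all members, the 4 other pathway genes of lowest p in each direction, and the 3 genes most like the member of lowest p and the member of highest level. Genes outside this rule, such as Gad1, Gad2, Slc17a6, Slc17a8, Slc25a18, Ppat, Gmps, Got1, Gfap, Aldoc, Map2, Tubb3 and the other cell type markers given by name, were named after their values were seen. A planned comparison of protein sequences was not run. Alternatives tried were other pseudocounts, filters, scalings, variance models, library weights, a replicate block, a Y-linked covariate and libraries left out. Figures were drawn with matplotlib 3.10.9.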

Additional observations from a re-analysis of the deposited data

How the results depend on the processing

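No member passed an adjusted p of 0.05 in limma under any of 18 alternatives, where the lowest adjusted p was 0.0617 for Glul with library weights. At an unadjusted p under 0.05 there were 5 members and 1422 genes in all. Slc1a2, Slc1a4, Glul and Glud1 kept the sign of their fold change under all 18 alternatives, at 0.13 to 0.31, -0.18 to -0.066, 0.30 to 0.52 and 0.052 to 0.23. Filters, variance models and the replicate block leave a gene's fold change as it is, so they could not turn a sign. With single libraries left out the members' median was 0.14 to 0.21, and it was 0.23 with quantile normalization, 0.13 with library weights and 0.079 with a covariate for the Y-linked share. Genes past the threshold in the whole table, 3 in the main comparison, were 0 to 10 with single libraries left out, 0 without a filter, with quantile normalization, without an intensity trend, with the Y-linked covariate or with WT replicate 3 alone against cKO, and 129 with library weights. With the Y-linked covariate signs turned for Slc1a3 (0.079), Slc1a5 (0.89), Slc38a3 (-0.39), Abat (-0.24), Slc7a11 (-0.054), Slc6a11 (-0.15) and Slc38a2 (0.075). Slc1a5 then had an unadjusted limma p of 0.0303 (adjusted p = 0.921). Glul, Slc1a2, Glud1 and Slc1a4 kept their signs with this covariate, at unadjusted limma p of 0.241, 0.314, 0.759 and 0.673. With WT replicate 3 alone signs turned for Slc1a3 (0.017), Slc1a5 (0.26) and Slc38a3 (-0.031), and with quantile normalization for Slc1a3 (0.015). With single libraries left out Slc1a5 ran from -0.42 to 0.011, turning without WT replicate 2, and Slc38a1 from -0.12 to 0.22, turning without WT replicate 3, cKO replicate 2 or cKO replicate 3. The cause was not tested.

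The replicate number as a block gave 22 genes past the threshold and 0 members. With this block 6 members had an unadjusted limma p under 0.05. Abat had the lowest (SE 0.074, limma unadjusted p = 0.00088, adjusted p = 0.0908). Deviations of same-numbered libraries correlated over genes at -0.043, 0.30 and 0.26, and not every library correlated best with its own number, so the numbers were not taken as pairs. Read depth is unknown, which leaves the precision of low genes such as Slc1a5 to the spread between libraries.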

Other observations

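Some members ordered the libraries of a group in opposite ways. Slc1a5 and Slc38a1 were both highest in replicate 2 of either group, with WT replicate 3 and cKO replicate 1 lowest. Abat had the reverse order in both groups, with WT replicate 3 at 143 FPKM and cKO replicate 1 at 187 FPKM highest and replicate 2 of either group lowest. Slc38a3 was also lowest in replicate 2 of either group, at 186 and 241 FPKM, and so was Slc1a2, at 166 and 205 FPKM. Slc1a3, Slc1a4, Glul and Glud1 kept neither order through both groups. Within WT, Glul and Glud1 had the order of Abat, and Slc1a3 had that of Slc1a5. Within cKO, Glul had the order of Slc1a5. Glul was lowest in WT replicate 2, at 874 FPKM, and highest in cKO replicate 2, at 1389 FPKM. These orders were noticed after the values were seen and rest on 3 libraries a group.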
